A study of Mus musculus with 12 samples.

Results

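*Saa1*, *Saa2*, *Saa3*, *Saa4*, *Lcn2*, *Orm1*, *Orm2*, *Orm3*, *Hp* and *Apcs* encode secreted proteins of the acute-phase response, and their transcripts were measured by bulk RNA-seq in 12 liver libraries from male mice. They are 10 of the 20093 genes listed in both deposited count tables, and all 10 passed the filter on low counts in every comparison. The genes were selected on their large spread between livers of the same group and on their levels in these libraries, so that spread and all differences between groups are given for these genes as a description, with standard errors and no p-value of their own. Where they are counted as being under a p-value threshold, nothing is read from the count. Genes outside the 10 were tested. The gene lists used below were also chosen with earlier results of these data known. Counts over a list are therefore a description too, and p-values of listed genes are those of genes so chosen.

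The mice carried a floxed *Elavl1* allele (HuR F/F), which encodes the RNA-binding protein HuR, on a C57BL/6N background, and all were given an AAV8 virus at 4 to 6 months of age. The livers labelled WT came from mice given AAV8-Tbg-null, and those labelled HuRHep-/- from mice given AAV8-Tbg-Cre, in which a hepatocyte promoter drives Cre. Each genotype was studied on normal chow and after 16 weeks of the HFCF diet (40 kcal% fat, 2% cholesterol and 20 kcal% fructose), with 3 libraries in each of the 4 groups. Each library is called a liver below, although the labels of the HFCF libraries only number the replicates. The methods of the published study describe a different model, a cross with *Alb*-Cre mice, and the counts cannot tell which of these descriptions applies here.

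*Elavl1* itself went against its label. Its level in CPM, the read count as a share of the scaled library total, was 30.9, 29.3 and 30.99 in the 3 chow livers labelled WT and 42.8, 39.2 and 38.8 in the 3 labelled HuRHep-/-. In the HFCF livers it was 23.9, 24.2 and 27.0 in those labelled WT and 32.4, 32.2 and 34.2 in those labelled HuRHep-/-. The transcript was therefore higher in the livers labelled HuRHep-/- under both diets, by 0.41 ± 0.07 (SE) on the log2 scale in chow (limma adjusted p = 0.0219) and 0.38 ± 0.07 in HFCF (limma adjusted p = 0.0327). The table has 1 count per gene, and the floxed part was not measured on its own. Every direction given below is that of the labels.

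The acute-phase response is the change in the plasma proteins made by the liver after infection or injury. Interleukin-6 and related cytokines act on hepatocytes through STAT3, interleukin-1 acts through NF-kB, and factors of the C/EBP family bind many of the promoters that respond. *Saa1* and *Saa2* encode the inducible serum amyloid A proteins carried on high-density lipoprotein. *Saa3* is the family member made mainly by macrophages and fat cells in the mouse, and *Saa4* encodes a constitutive form. *Lcn2* encodes lipocalin 2, which withholds iron from bacteria by binding their siderophores. *Orm1*, *Orm2* and *Orm3* encode orosomucoid, or alpha-1-acid glycoprotein, a carrier of drugs and lipids in plasma. *Hp* encodes haptoglobin, which binds free haemoglobin, and *Apcs* encodes serum amyloid P component, a pentraxin.

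The Saa genes lie together on chromosome 7 and the Orm genes together on chromosome 4. In the GENCODE annotation of GRCm38, *Saa3* is at chr7:46711998-46715700 (minus strand), *Saa4* at chr7:46727998-46732603 (minus strand), *Saa1* at chr7:46740497-46742980 (minus strand) and *Saa2* at chr7:46751790-46754313 (plus strand). *Orm1* is at chr4:63344560-63348163, *Orm3* at chr4:63356162-63359511 and *Orm2* at chr4:63362449-63365878, all on the plus strand. *Lcn2* is at chr2:32384633-32388252, *Hp* at chr8:109575128-109579172 and *Apcs* at chr1:172893961-172895041, all on the minus strand. All 10 genes are protein coding, and their exons overlap no exon of another annotated gene.

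The promoter windows of *Saa1* and *Saa2* are nearly the same in letters. The windows below run from 250 bases before to 50 bases after the start that the RefSeq promoter table on GRCm38.p6 uses for each gene, and are shown because the transcripts of this pair followed each other from liver to liver. *Saa1* is chr7:46742931-46743230 on the minus strand and *Saa2* is chr7:46751583-46751882 on the plus strand, each written 5′ to 3′ in the sense of the gene. Capitals mark the match to TTGCNNAA, a C/EBP motif, searched on both strands.
Saa1: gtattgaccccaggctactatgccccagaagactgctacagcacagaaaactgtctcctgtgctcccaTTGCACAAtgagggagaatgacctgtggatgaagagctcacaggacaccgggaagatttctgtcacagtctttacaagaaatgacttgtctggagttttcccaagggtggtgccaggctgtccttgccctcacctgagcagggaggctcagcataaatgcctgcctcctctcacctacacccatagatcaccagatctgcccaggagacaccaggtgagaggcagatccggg
Saa2: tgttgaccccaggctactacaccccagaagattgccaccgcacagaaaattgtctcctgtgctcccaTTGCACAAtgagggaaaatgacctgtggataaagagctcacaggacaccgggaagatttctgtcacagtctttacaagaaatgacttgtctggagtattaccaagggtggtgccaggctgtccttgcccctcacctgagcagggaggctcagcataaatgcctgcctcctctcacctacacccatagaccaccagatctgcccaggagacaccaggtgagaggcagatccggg
Aligned end to end, the windows were 95.3% identical over 301 columns, and the capitals hold the same letters in both.

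The same motif is shown next in stretches of 80 bases from *Saa3* (chr7:46715732-46715811, minus strand), *Lcn2* (chr2:32387910-32387989, minus strand), *Orm2* (chr4:63362293-63362372, plus strand) and *Orm3* (chr4:63356001-63356080, plus strand). These are the other genes with a match, apart from the constitutive *Saa4*. The capitals in *Saa3* read the motif on the opposite strand.
Saa3: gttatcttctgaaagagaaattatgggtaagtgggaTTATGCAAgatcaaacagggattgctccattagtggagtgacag
Lcn2: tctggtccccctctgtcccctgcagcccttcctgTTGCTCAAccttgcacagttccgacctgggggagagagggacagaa
Orm2: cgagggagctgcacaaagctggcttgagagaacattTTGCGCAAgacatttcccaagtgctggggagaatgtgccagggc
Orm3: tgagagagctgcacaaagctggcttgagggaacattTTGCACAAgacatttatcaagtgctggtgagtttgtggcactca
Promoter windows were found for 8 of the 10 genes, all but *Orm1* and *Hp*. For 5 of them the start used is also the outer end of the RefSeq gene record, while for *Saa1*, *Saa3* and *Orm3* that record begins further upstream, for *Saa1* at 46743181 and not at 46742980. A match to TTGCNNAA was present in 7 of these 8, against 10.8% of 27025 promoter windows of the same length. The window without one was that of *Apcs*. Windows of similar letters, such as those of *Saa1* and *Saa2* or of *Orm2* and *Orm3* (86.6% identical), are not separate observations. *Saa4* had 2 matches, from -245 to -238 and from -52 to -45 relative to its start, whereas those of *Saa1* and *Saa2* lay from -182 to -175 and from -183 to -176. TATAAA was present in *Orm2* and *Orm3* alone among the 8 (14.2% of all windows), TTCNNNGAA, a STAT3 motif, in *Apcs* alone (8.47%), and GGNNTTTCC, an NF-kB motif, in *Saa3* alone (5.72%). All were searched on both strands. A match of this kind is a description of letters and not a site of binding.

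HuR binds AU-rich elements in transcripts. The pentamer ATTTA, in capitals below, was present in the annotated 3′UTR of 1 of the 10 genes, *Saa4*, at base 715 of its 1524 bases.
Saa4: gatggtatacATTTAtaatcctagc
The 3′UTRs of the other 9 genes were 113 to 232 bases long. ATTTA was present in 66.4% of 10060 tested genes, and in 25.0% of the 1110 whose 3′UTR had 100 to 250 bases.

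**Figure D1:**
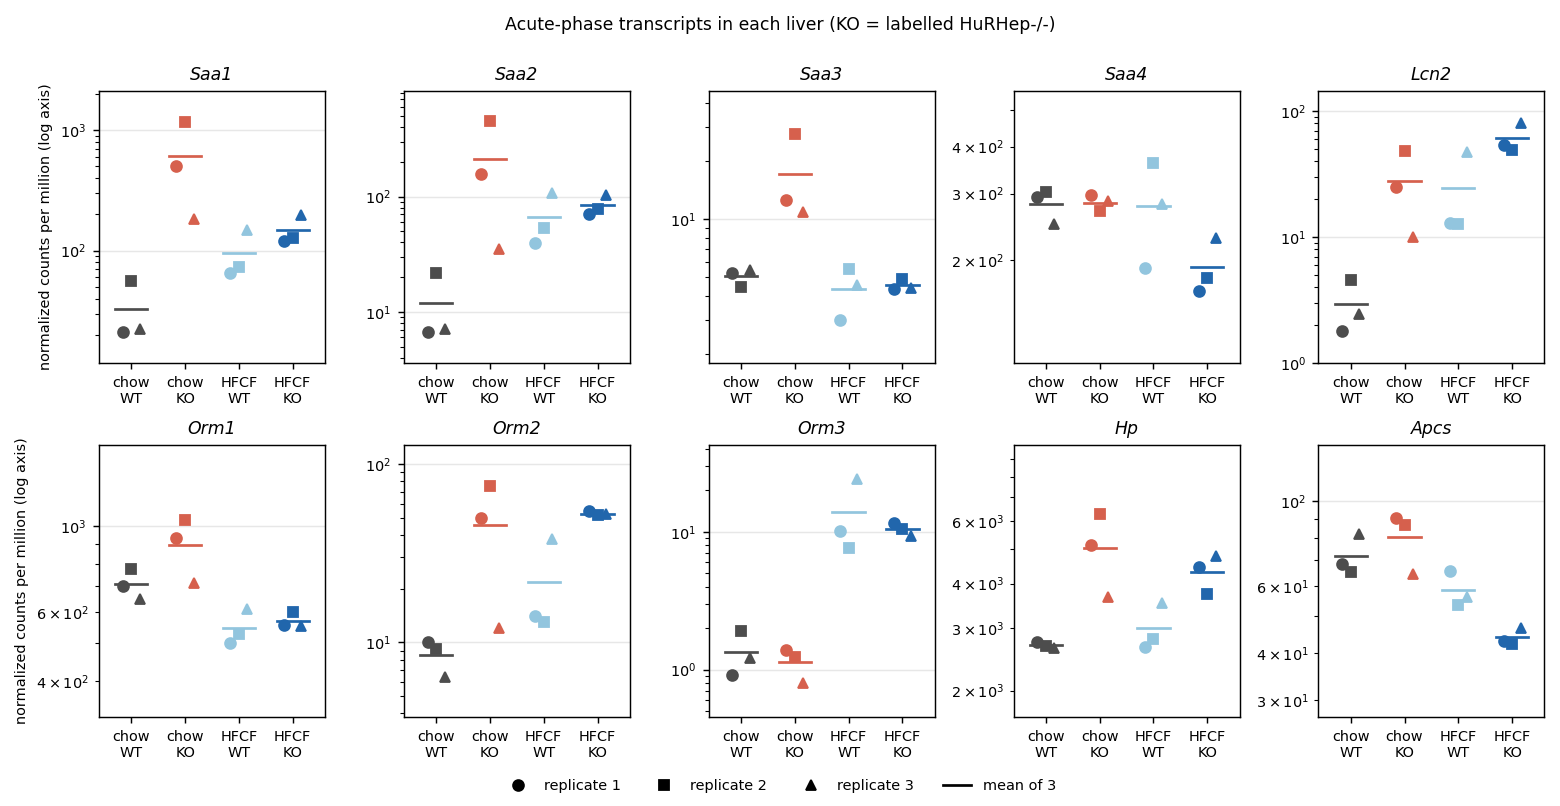
CPM of each of the 10 genes in each of the 12 livers, with 1 point per liver on a log axis and a bar at the mean of each group. Saa1 in the 3 chow livers labelled HuRHep-/- runs from 184 to 1161 CPM, whereas Saa4 in the same livers stays between 269 and 297 CPM.

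The 2 inducible serum amyloid A genes differed most between livers. *Saa1* was at 21.2, 55.5 and 22.2 CPM in the chow livers labelled WT and at 501, 1161 and 184 CPM in those labelled HuRHep-/-. In the HFCF livers it was at 64.8, 73.3 and 149 CPM in those labelled WT and at 121, 126 and 196 CPM in those labelled HuRHep-/-. All 3 chow livers labelled HuRHep-/- were above all chow livers labelled WT, and the HFCF groups overlapped. *Saa2* was at 6.62, 21.8 and 7.13 CPM in the chow livers labelled WT and at 158, 448 and 34.9 CPM in those labelled HuRHep-/-. The HFCF values were 39.2, 53.3 and 107 CPM in those labelled WT and at 70.4, 77.3 and 104 CPM in those labelled HuRHep-/-. The second liver of each chow group was the highest for both genes, as was the third liver of the HFCF livers labelled WT.

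*Saa3* and *Saa4* had other patterns. *Saa3* was at 5.30, 4.45 and 5.49 CPM in the chow livers labelled WT and at 12.6, 27.7 and 10.9 CPM in those labelled HuRHep-/-. Its HFCF levels were 3.01, 5.56 and 4.58 CPM against 4.36, 4.90 and 4.39 CPM. The chow livers labelled HuRHep-/- were thus above all other 9 livers for *Saa3*. *Saa4* was at 294, 304 and 249 CPM against 297, 269 and 286 CPM in chow. In HFCF it was at 190, 361 and 281 CPM in the livers labelled WT and at 166, 179 and 229 CPM in those labelled HuRHep-/-. The groups overlapped for this constitutive gene under both diets.

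*Lcn2*, the siderophore binder, was at 1.81, 4.58 and 2.45 CPM in the chow livers labelled WT and at 24.9, 48.1 and 10.1 CPM in those labelled HuRHep-/-. In the HFCF livers it was at 12.9, 12.8 and 47.4 CPM in those labelled WT and at 53.9, 49.0 and 80.04 CPM in those labelled HuRHep-/-. The genotypes did not overlap under either diet, although the third HFCF liver labelled WT came close to the lowest liver labelled HuRHep-/-.

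Among the orosomucoids, *Orm1* was abundant and even. It was at 703, 776 and 651 CPM against 929, 1037 and 714 CPM in chow, and at 503, 530 and 611 CPM against 558, 601 and 554 CPM in HFCF, always with the livers labelled WT first. *Orm2* was at 10.01, 9.20 and 6.44 CPM against 49.9, 75.7 and 11.97 CPM in chow, and at 14.0, 12.98 and 38.1 CPM against 54.4, 51.7 and 52.5 CPM in HFCF. *Orm2* therefore separated the genotypes under both diets, and the HFCF livers labelled HuRHep-/- lay within a 1.05-fold range. *Orm3* was at 0.922, 1.91 and 1.21 CPM against 1.39, 1.24 and 0.8002 CPM in chow, from 26 to 57 reads per library. The HFCF levels were 10.1, 7.57 and 24.1 CPM against 11.6, 10.5 and 9.27 CPM. The HFCF livers were above all chow livers for *Orm3*, and the genotypes overlapped under both diets.

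*Hp*, the haemoglobin scavenger, was the most abundant of the 10 genes per length in every group. It was at 2740, 2669 and 2634 CPM in the chow livers labelled WT and at 5136, 6282 and 3677 CPM in those labelled HuRHep-/-. In HFCF it was at 2649, 2795 and 3541 CPM against 4448, 3738 and 4774 CPM, and the genotypes did not overlap under either diet. *Apcs*, the pentraxin, was at 68.4, 65.1 and 82.1 CPM against 90.3, 86.4 and 64.4 CPM in chow, where the groups overlapped. In HFCF it was at 65.6, 53.5 and 56.0 CPM in the livers labelled WT and at 43.1, 42.2 and 46.6 CPM in those labelled HuRHep-/-. It was the only one of the 10 that was lower without overlap in the HFCF livers labelled HuRHep-/-.

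The 10 genes together held 0.328 to 0.366% of all counts in the chow livers labelled WT, and 0.712, 0.922 and 0.457% in the 3 labelled HuRHep-/-. The shares in HFCF were 0.374, 0.380 and 0.508% for WT labels, and for HuRHep-/- labels 0.627, 0.540 and 0.686%. Total counts ran from 30071731 to 35949203 per library. In bulk tissue, fewer cells of a type and less RNA per cell cannot be told apart.

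Between genes, levels were compared as CPM per kb of the principal transcript. In the chow livers labelled WT the order of mean levels was *Hp* (1993 ± 40.3, SD, n = 3), *Orm1* (916 ± 81.1), *Saa4* (135 ± 13.9), *Apcs* (74.0 ± 9.32), *Saa1* (54.1 ± 32.0), *Saa2* (18.2 ± 13.2), *Orm2* (11.03 ± 2.41), *Saa3* (9.15 ± 1.001), *Lcn2* (3.22 ± 1.59) and *Orm3* (1.74 ± 0.655). The livers of neighbours overlapped between *Apcs* and *Saa1*, *Saa2* and *Orm2*, *Orm2* and *Saa3*, and *Lcn2* and *Orm3*. The abundant end of the order thus held haptoglobin, *Orm1* and the constitutive *Saa4*.

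In the chow livers labelled HuRHep-/- the order of levels per kb was *Hp* (3741 ± 970, SD, n = 3), *Orm1* (1152 ± 212), *Saa1* (1011 ± 818), *Saa2* (328 ± 326), *Saa4* (136 ± 6.69), *Apcs* (82.8 ± 14.4), *Orm2* (59.2 ± 41.3), *Saa3* (30.8 ± 16.6), *Lcn2* (30.2 ± 20.9) and *Orm3* (1.48 ± 0.397). *Saa1* and *Saa2* stood above *Saa4* in the means, with an SD about as large as the level. All neighbours from *Orm1* to *Saa4* and from *Apcs* to *Lcn2* overlapped between livers.

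In HFCF, *Hp* and *Orm1* again led per kb, at 2227 ± 356 and 707 ± 72.8 in the livers labelled WT and at 3212 ± 394 and 737 ± 33.9 in those labelled HuRHep-/- (SD, n = 3 each). *Saa1* came next, at 157 ± 75.8 and 242 ± 68.9. In the livers labelled WT the order went on with *Saa4* (132 ± 40.8), *Saa2* (102 ± 54.8), *Apcs* (60.1 ± 6.57), *Orm2* (28.0 ± 18.4), *Lcn2* (26.7 ± 21.8), *Orm3* (18.0 ± 11.5) and *Saa3* (7.89 ± 2.32), and neighbours from *Saa1* to *Apcs* and from *Orm2* to *Saa3* overlapped. In the livers labelled HuRHep-/- it went on with *Saa2* (129 ± 27.2), *Saa4* (91.3 ± 16.0), *Orm2* (68.2 ± 1.78), *Lcn2* (66.6 ± 18.2), *Apcs* (45.2 ± 2.40), *Orm3* (13.5 ± 1.51) and *Saa3* (8.20 ± 0.544). There only *Saa2* and *Saa4*, and *Orm2* and *Lcn2*, overlapped among neighbours.

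The spread between livers of one group, on which the genes were chosen, differed among them and among groups. In the chow livers labelled HuRHep-/-, the highest liver exceeded the lowest 12.9-fold for *Saa2*, 6.32-fold for *Orm2*, 6.29-fold for *Saa1* and 4.77-fold for *Lcn2*. The corresponding SDs of log2 CPM were 1.85, 1.39, 1.33 and 1.13, against a median of 0.144 over 14535 genes in the same livers. These SDs stood at the 99.2, 98.5, 98.3 and 97.6 percentiles of all genes. *Saa4* (SD 0.072) and *Orm1* (SD 0.28) were far more even in the same 3 livers. In the HFCF livers labelled WT the SD was 1.09 for *Lcn2*, 0.87 for *Orm2* and for *Orm3*, 0.74 for *Saa2* and 0.65 for *Saa1*, against a median of 0.170 over all genes. Among the HFCF livers labelled HuRHep-/- it was 0.037 for *Orm2* and 0.39 for *Saa1*, against a median of 0.128, and the spread of *Orm2* there was at the 8.9 percentile of all genes.

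**Figure D2:**
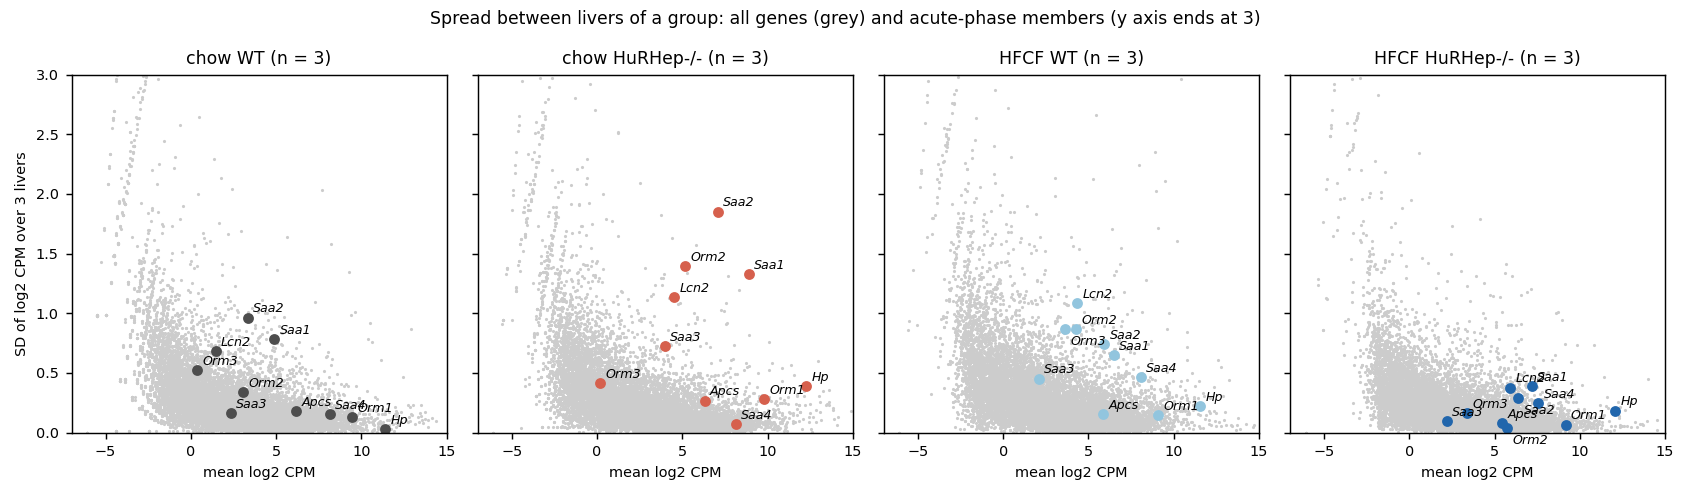
SD of log2 CPM over the 3 livers of each group (y axis, ending at 3) against the mean log2 CPM (x axis), with all 14535 genes in grey and the 10 acute-phase genes named. Saa2, Orm2, Saa1 and Lcn2 stand high in the chow livers labelled HuRHep-/- (SD 1.13 to 1.85), and Saa4 lies among the bulk of genes there (SD 0.072).

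The spread had the same order of livers for many of the genes. Among the chow livers labelled HuRHep-/-, replicate 2 was the highest for 7 of the 10 genes (*Saa1*, *Saa2*, *Saa3*, *Lcn2*, *Orm1*, *Orm2* and *Hp*) and replicate 3 the lowest for 9, all but *Saa4*. Among the HFCF livers labelled WT, replicate 3 was the highest for 7 (*Saa1*, *Saa2*, *Lcn2*, *Orm1*, *Orm2*, *Orm3* and *Hp*). Among the chow livers labelled WT, replicate 2 was the highest for 6, and among the HFCF livers labelled HuRHep-/-, replicate 3 was the highest for 6.

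**Figure D3:**
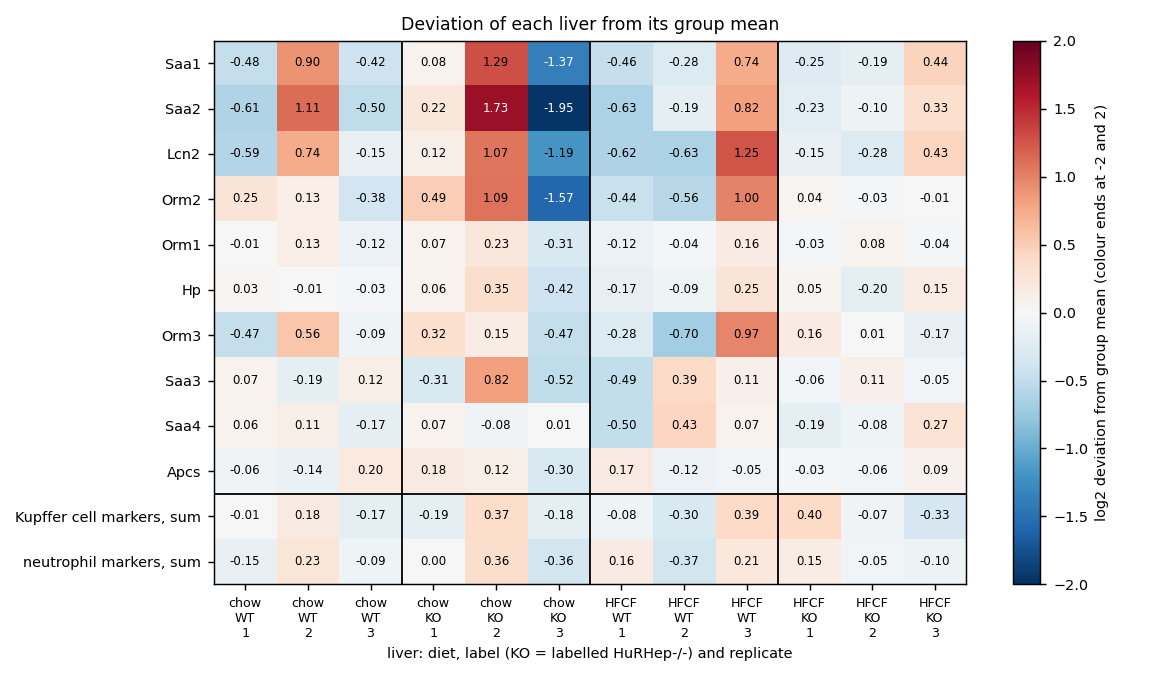
Log2 CPM of each gene in each liver minus the mean of its group (colour and printed value), with the summed Kupffer cell and neutrophil markers below. The second chow liver labelled HuRHep-/- (KO) is above its group by 1.29 for Saa1, 1.73 for Saa2, 1.07 for Lcn2 and 1.09 for Orm2, and its 2 marker sums are above their group means by 0.37 and 0.36.

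Across the 12 livers, each taken as its deviation from its group mean, *Saa1* and *Saa2* followed each other with Pearson's r = 0.99 (Spearman's rho = 0.99), and with r = 0.98 without the 2 livers farthest from the middle, replicates 2 and 3 of the chow livers labelled HuRHep-/-. *Saa1* and *Lcn2* gave r = 0.95 (rho = 0.90) and 0.93 without these livers. For *Orm1*, *Orm2*, *Hp* and *Saa3* the relation to *Saa1* leaned more on them, and for *Orm3* and *Saa4* it did not. *Saa1* gave r = 0.90 with *Orm1* and 0.75 without those livers, r = 0.84 and 0.60 with *Orm2*, and r = 0.84 and 0.59 with *Hp*. For *Saa1* and *Orm3* it was r = 0.67 and 0.76. *Saa1* and *Saa3* gave r = 0.56 with all livers and -0.09 without the pair. *Saa1* and *Saa4* gave r = 0.20 and 0.41, and *Saa1* and *Apcs* r = 0.30 and -0.32. The values of 1 liver share its library, so these are descriptions.

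Of 11998 other genes with a mean of at least 1 CPM, those whose deviations were most like the mean standardized deviation of *Saa1*, *Saa2*, *Saa3*, *Lcn2* and *Orm2* over the 12 livers were *Wdfy4* (r = 0.92), *Mamdc2* (r = 0.92), *Fgl1* (r = 0.91), *Zmynd15* (r = 0.91), *Adrbk1* (r = 0.91), *Cenpm* (r = 0.90), *Crebzf* (r = 0.89) and *Rab6b* (r = 0.89). *Fgl1*, which encodes a fibrinogen-like protein secreted by hepatocytes, had a mean of 244 CPM. Without the 2 farthest livers r was 0.91 for *Fgl1*, 0.86 for *Mamdc2*, 0.80 for *Adrbk1* and between 0.52 and 0.77 for the other 5.

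Markers of other cells moved with part of these values. The 8 Kupffer cell and macrophage markers, all detected, summed to 144 to 185 CPM in the chow livers labelled WT and to 203 to 300 CPM in those labelled HuRHep-/-, with the highest sum in replicate 2. In HFCF they summed to 220 to 355 CPM in the livers labelled WT, with the highest in replicate 3, and to 305 to 505 CPM in those labelled HuRHep-/-, with the highest in replicate 1. Their most abundant gene was *Cd5l*, at 41.3 to 218 CPM. The 12 neutrophil markers summed to 2.11 to 2.74, 2.37 to 3.90, 2.69 to 4.00 and 5.12 to 6.11 CPM in chow WT, chow HuRHep-/-, HFCF WT and HFCF HuRHep-/- (as labelled), and *Csf3r*, the most abundant, was at 0.856 to 3.59 CPM. *Ly6g* was not listed or at 0 in all groups but the last, and *Camp* was at 0 in both groups labelled WT. Of either list, 0 genes were called by limma between genotypes under either diet, with 0 also at an adjusted p of at most 0.05. At an unadjusted p under 0.05 there were 5 and 3 of the 8 Kupffer cell markers in chow and HFCF, and 0 of 3 and 2 of 4 neutrophil markers tested, where 23.5% and 29.5% of all genes were. Their part in the results was not tested.

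Hepatocyte markers checked the tissue. The 8 markers summed to 25507 to 28598 CPM in the chow livers labelled WT, 23274 to 26477 in the chow livers labelled HuRHep-/-, 18089 to 22046 in the HFCF livers labelled WT and 15268 to 16851 in the HFCF livers labelled HuRHep-/-, led by *Cyp2e1* at 4289 to 9575 CPM. *Cyp2e1* was called lower in the HFCF livers labelled HuRHep-/-, by 0.76 ± 0.17 (SE, log2; limma adjusted p = 0.0464), and in 0 of the 6 fits without 1 liver. In the same order, lymphocyte markers summed to 3.69 to 5.99, 4.86 to 6.81, 4.70 to 6.84 and 7.28 to 8.84 CPM, adipocyte markers to 140 to 158, 130 to 134, 143 to 313 and 196 to 229 CPM, and pancreas and gut markers to 57.0 to 83.7, 54.4 to 66.6, 212 to 245 and 209 to 235 CPM. The most abundant genes of these lists were *Cd4*, *Pnpla2* and *Fabp2*, the last of which is also made in liver. Between genotypes in HFCF, 8 of 9 lymphocyte markers had estimates above 0 (median 0.88) and 0 were called. An unadjusted limma p under 0.05 was found for 6 of these 9, beside 29.5% of all genes, and for 0 of 6 in chow, beside 23.5%.

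Between genotypes in the chow livers, *Saa1*, *Saa2*, *Lcn2*, *Orm2* and *Saa3* had the largest differences of the 10. The log2 difference, those labelled HuRHep-/- minus those labelled WT, was 4.01 ± 0.64 (SE) for *Saa1*, 3.75 ± 0.87 for *Saa2*, 3.07 ± 0.55 for *Lcn2*, 2.09 ± 0.60 for *Orm2* and 1.63 ± 0.32 for *Saa3*. It was 0.88 ± 0.19 for *Hp*, 0.32 ± 0.14 for *Orm1*, 0.16 ± 0.14 for *Apcs*, 0.02 ± 0.09 for *Saa4* and -0.20 ± 0.33 for *Orm3*. Without overlap, 6 genes were above, namely *Saa1*, *Saa2*, *Saa3*, *Lcn2*, *Orm2* and *Hp*, where 28.2% of all genes did not overlap in either direction. *Saa1*, *Saa3*, *Lcn2* and *Hp*, 4 of the 10, met the call rule (limma adjusted p at most 0.05, at least 1.5-fold), as did 2.23% of all genes tested. Nothing is read from these counts, since the genes were chosen on the same libraries. Without replicate 2 of the livers labelled HuRHep-/-, 0 of the 10 and 0.0600% of all genes met it, and 0 of the 10 also without replicate 1 of that group (0.712% of all genes) or replicate 1 (0.818%) or 3 (0.590%) of those labelled WT. Without replicate 3 of those labelled HuRHep-/- it was 6, beside 2.39% of all genes, and without replicate 2 of those labelled WT it was 2, beside 2.07%. With voom weights it was 2 as well, *Saa1* and *Hp*, beside 2.04% of all genes. *Hp* was lost without the filter on low counts (1.21% of all genes), and *Saa2* was added in the fit on all 12 libraries (2.81%).

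In the HFCF livers, the largest differences between genotypes were those of *Lcn2* and *Orm2*. By limma, 0 of the 10 genes met the call rule, where 3.66% of all genes tested did. With voom weights it was 1, *Orm2*, beside 3.93% of all genes. With a block for the replicate number it was 3, *Saa1*, *Lcn2* and *Orm2*, beside 5.34%. The count at an unadjusted p of at most 0.05 was 4, beside 29.5% of all genes. Without overlap, *Lcn2*, *Orm2* and *Hp* were higher in the livers labelled HuRHep-/- and *Apcs* was lower, beside 35.9% of all genes. Nothing is read from these counts either, since the HFCF libraries also entered the values on which the genes were chosen. The log2 difference was 1.57 ± 0.49 (SE) for *Lcn2*, 1.45 ± 0.37 for *Orm2* and 0.52 ± 0.16 for *Hp*. For *Apcs* it was -0.42 ± 0.09, less than a 1.5-fold change.

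The serum amyloid A genes overlapped between genotypes in HFCF. The log2 difference was 0.68 ± 0.32 (SE) for *Saa1*, 0.43 ± 0.34 for *Saa2*, 0.08 ± 0.22 for *Saa3* and -0.52 ± 0.23 for *Saa4*. The remaining orosomucoids stood at 0.05 ± 0.09 for *Orm1* and -0.25 ± 0.38 for *Orm3*. The median over the 10 genes was 0.26, beside -0.0011 over all genes.

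Leaving out 1 library moved the HFCF count. Without replicate 3 of the livers labelled WT, the highest of its group for 7 of the genes, *Saa1*, *Saa2*, *Lcn2* and *Orm2* met the call rule, with log2 differences of 1.05, 0.84, 2.20 and 1.96, while 5.97% of all genes did. Without any other single liver of the comparison, 0 of the 10 met it, beside 0.199 to 2.48% of all genes. Kupffer cell and neutrophil marker sums were above the group mean in replicate 3 of the livers labelled WT, by 0.39 and 0.21 on the log2 scale. In replicate 3 of those labelled HuRHep-/-, the highest of its group for 6 of the genes, these sums were at -0.33 and -0.10 from the group mean. The part of these cells was not tested.

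**Figure D4:**
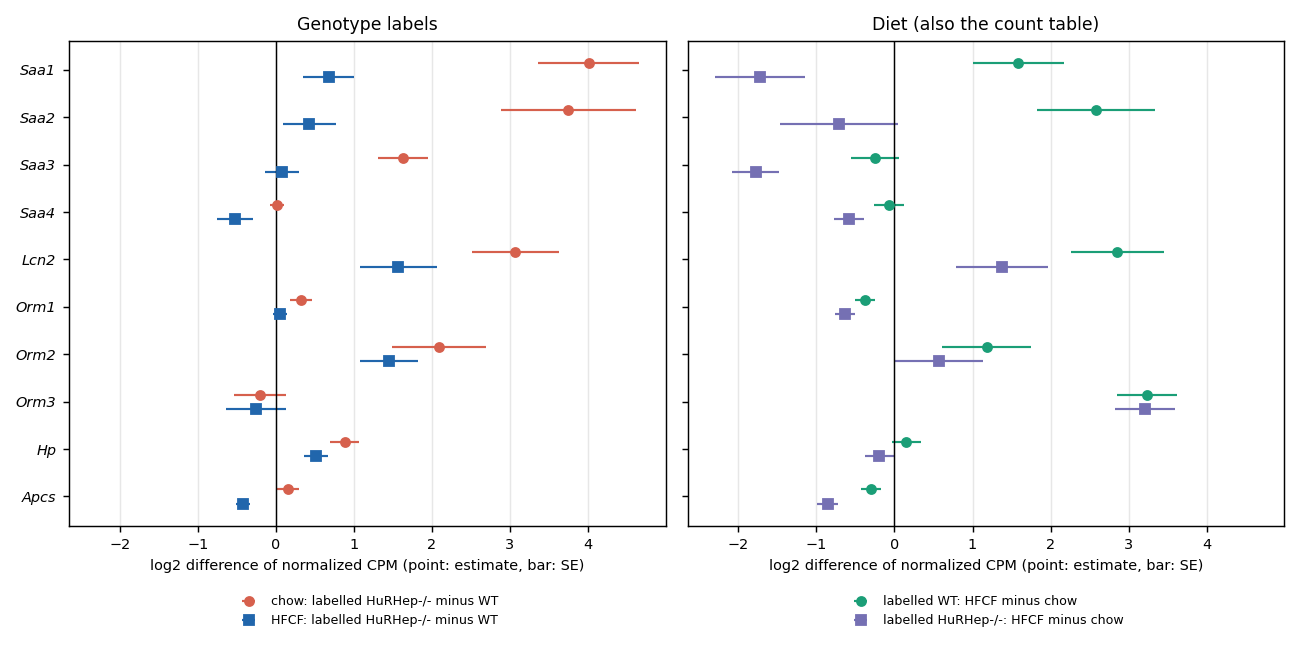
Log2 difference of each of the 10 genes with its standard error (bars) in the genotype comparisons in chow and in HFCF and in the diet comparisons in livers labelled WT and HuRHep-/-. Saa1 differs between genotypes by 4.01 in chow and by 0.68 in HFCF, and Orm3 differs between diets by 3.24 and 3.21.

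Between diets, the levels are set side by side with those above, because each diet comparison shares its chow and its HFCF livers with a genotype comparison. The diets are also in separate count tables, so diet and table cannot be told apart. In the livers labelled WT, HFCF minus chow was 3.24 ± 0.38 (SE, log2) for *Orm3*, 2.86 ± 0.59 for *Lcn2*, 2.59 ± 0.75 for *Saa2*, 1.59 ± 0.58 for *Saa1* and 1.18 ± 0.57 for *Orm2*. It was 0.15 ± 0.19 for *Hp*, -0.07 ± 0.19 for *Saa4*, -0.25 ± 0.30 for *Saa3*, -0.30 ± 0.13 for *Apcs* and -0.38 ± 0.13 for *Orm1*. Without overlap, 5 were higher (*Saa1*, *Saa2*, *Lcn2*, *Orm2* and *Orm3*) and *Orm1* was lower, beside 37.6% of all genes. *Saa2*, *Lcn2* and *Orm3* met the call rule, beside 9.41% of all genes, and nothing is read from that count. *Saa2* met it in 3 of the 6 fits that each left out 1 liver of these groups, and *Lcn2* and *Orm3* in 6 of 6. With voom weights *Orm3* alone of the 10 met it, beside 8.21% of all genes.

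The diet values had another order in the livers labelled HuRHep-/-. *Orm3* was again higher in HFCF, by 3.21 ± 0.38 (SE, log2), and *Lcn2* by 1.38 ± 0.59 and *Orm2* by 0.57 ± 0.57. *Saa1* was at -1.72 ± 0.58, *Saa3* at -1.78 ± 0.30, *Apcs* at -0.86 ± 0.13, *Saa2* at -0.71 ± 0.75, *Orm1* at -0.63 ± 0.13, *Saa4* at -0.58 ± 0.19 and *Hp* at -0.19 ± 0.19. *Lcn2* and *Orm3* were higher without overlap and *Saa3*, *Saa4*, *Orm1* and *Apcs* lower, beside 54.6% of all genes. *Orm3*, *Saa1*, *Saa3*, *Orm1* and *Apcs* met the call rule, beside 19.1% of all genes, and again nothing is read from the count. *Saa1* met it in 2 of the 6 fits that each left out 1 liver, *Orm1* in 5, and *Orm3*, *Saa3* and *Apcs* in 6. Kupffer cell markers that met the rule between diets were *Cd68* (1.25 ± 0.23, limma adjusted p = 0.00386), *Cd5l* (1.195 ± 0.26, 0.00757) and *Vsig4* (0.68 ± 0.22, 0.0423) in the livers labelled WT, and 4 of 8 in those labelled HuRHep-/-. Of the 8 Kupffer cell markers, 6 had estimates above 0 and 2 below in both. Of the 6 fits that each left out 1 liver labelled WT, *Vsig4* was called in 1, and *Cd68* and *Cd5l* in 6. Of the hepatocyte markers, 4 of 8 were called lower in HFCF in the livers labelled WT and 3 of 8 in those labelled HuRHep-/-, with all 8 estimates below 0 in both (medians -0.47 and -0.54). Their part in the differences of the 10 genes was not tested.

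Genotype by diet, the genotype difference in HFCF minus that in chow, was estimated below 0 for all 10 genes. It was -3.31 ± 0.82 (SE, log2) for *Saa1*, -3.29 ± 1.07 for *Saa2*, -1.53 ± 0.43 for *Saa3*, -1.48 ± 0.84 for *Lcn2*, -0.61 ± 0.80 for *Orm2*, -0.56 ± 0.18 for *Apcs*, -0.52 ± 0.27 for *Saa4*, -0.34 ± 0.26 for *Hp*, -0.25 ± 0.18 for *Orm1* and -0.03 ± 0.54 for *Orm3*. The 10 share the same livers, so their common sign is not 10 observations, and for *Orm3* the sign changed when single livers were left out. By limma, 0 of the 10 and 0.0% of all genes met the call rule, with 2083 of 14535 genes at an unadjusted p of at most 0.05 and 0 called with voom weights.

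The ratio of *Saa1* to *Saa2* counts was noticed in these values, and is given with no test. It was 3.21, 2.54 and 3.11 in chow for WT labels, and for HuRHep-/- labels 3.18, 2.59 and 5.29. The HFCF ratios were 1.65, 1.37 and 1.39 for WT labels, and for HuRHep-/- labels 1.72, 1.63 and 1.89. The 6 chow and the 6 HFCF livers did not overlap. The log2 ratio was 1.69 ± 0.38 in chow and 0.68 ± 0.18 in HFCF (SD, n = 6 each), a difference of -1.01. Within the livers labelled WT the difference was -1.002 and within those labelled HuRHep-/- -1.01. The genotypes overlapped under both diets, and the diets are in separate tables.

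How the authors' counting divided reads between the 2 genes bears on that ratio. Of the 31-base words of the principal transcript, 30.1% for *Saa1* and 22.2% for *Saa2* also occur in other genes, mostly in each other. For *Orm1*, *Orm2* and *Orm3* the shares were 27.5, 34.1 and 9.42%, against 5.71% for *Saa3*, 1.58% for *Saa4*, 0.304% for *Hp* and none for *Lcn2* and *Apcs*. With the counts of *Saa1* and *Saa2* summed, the diet difference in the livers labelled HuRHep-/- was -1.44 ± 0.62 (SE, log2) and no longer met the call rule, which *Saa1* alone did. In those labelled WT the sum was at 1.91 ± 0.62 and met it, which *Saa1* alone did not. Between genotypes the sum was at 3.96 ± 0.69 in chow and 0.58 ± 0.33 in HFCF. With the counts of *Orm1*, *Orm2* and *Orm3* summed, the sum follows *Orm1* and the values of *Orm2* and *Orm3* are lost in it. The ratio of *Orm1* to *Orm3* counts was 407 to 892 in the chow livers and 25.4 to 69.9 in the HFCF livers, and that of *Orm1* to *Orm2* was 70.2 to 101 in the chow livers labelled WT, 13.7 to 59.6 in the chow livers labelled HuRHep-/-, 16.0 to 40.8 in the HFCF livers labelled WT and 10.3 to 11.6 in the HFCF livers labelled HuRHep-/-.

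**Figure D5:**
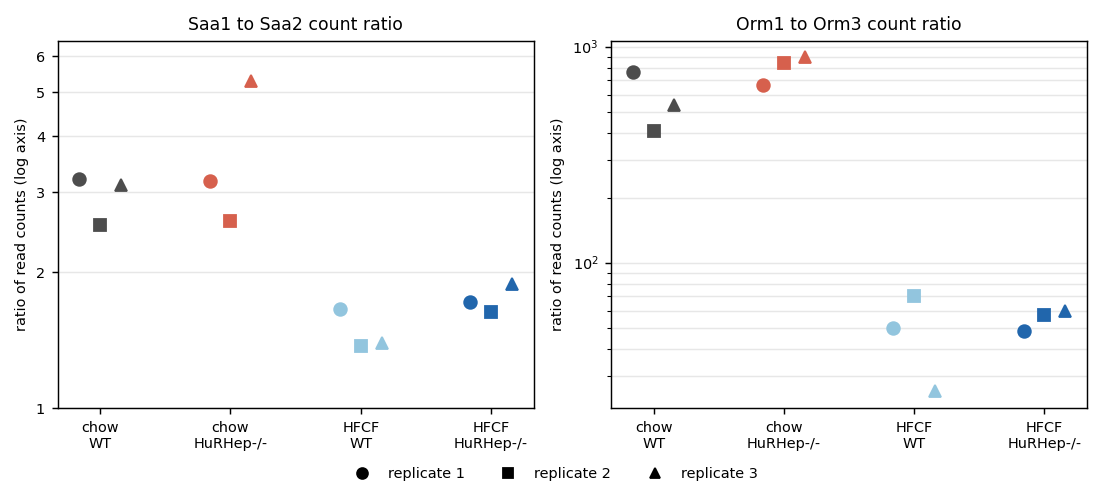
Ratio of read counts within the Saa and Orm families in each of the 12 livers, 1 point per liver on a log axis. Saa1 to Saa2 lies between 2.54 and 5.29 in chow and between 1.37 and 1.89 in HFCF, without overlap.

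Few genes of the cytokine pathways that act on these promoters were called between genotypes. Of 36 signalling genes tested in chow, 0 were called higher and 1 lower (2.23% of all genes called), and of 38 in HFCF 1 was higher and 1 lower (3.66% of all genes). Without the fold limit, 4 were higher and 2 lower in HFCF at an adjusted p of at most 0.05 in limma, beside 978 of 14295 genes. An unadjusted p under 0.05 was found for 16 of 38, where 29.5% of all genes had one. In chow these counts were 0 and 1, beside 570 of 13526 genes, and 6 of 36, where 23.5% of all genes had one. The difference from all genes was not tested. *Il1rap*, the accessory subunit of the interleukin-1 receptor, was lower in the livers labelled HuRHep-/- by 0.60 ± 0.08 (SE, log2; limma adjusted p = 0.0118) in chow and by 0.76 ± 0.15 (limma adjusted p = 0.0375) in HFCF. *Osmr*, a receptor subunit for oncostatin M, was higher in HFCF by 0.82 ± 0.19 (limma adjusted p = 0.0493) and was called in 1 of the 6 fits without 1 liver, and *Il1rap* in 2 of 6 under either diet. The median over the list was 0.04 in chow.

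Individual regulators were named whatever their values. *Stat3*, the interleukin-6 effector, differed by 0.34 ± 0.18 (SE, log2) in chow (limma adjusted p = 0.288) and by 0.54 ± 0.12 in HFCF (0.0419, under 1.5-fold). *Socs3*, its feedback inhibitor, differed by 0.79 ± 0.30 (limma adjusted p = 0.173) and 1.14 ± 0.33 (0.0802). *Cebpb*, one of the C/EBP factors, stood at -0.38 ± 0.15 (limma adjusted p = 0.168) and -0.44 ± 0.21 (0.199). *Cebpd* was at -0.03 ± 0.29 and -0.21 ± 0.41, and *Nfkbiz*, an NF-kB cofactor, at 0.17 ± 0.21 and 0.22 ± 0.17, with limma adjusted p from 0.409 to 0.963. *Il6* was listed in the HFCF table alone, at 0 CPM in 5 of 6 livers and 0.0259 CPM in the other one, and was not tested. The most abundant gene of the list was *Cebpa*, at 344 to 589 CPM.

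Of 20 other positive acute-phase genes tested in chow, 6 were higher and 1 lower in the livers labelled HuRHep-/-, where 2.23% of all genes were called in either direction, with a median of 0.28 beside 0.0054 over all genes. The estimate was above 0 for 16 of the 20, and 11 had an unadjusted p under 0.05, where 23.5% of all genes had. The largest rises were those of the metallothioneins *Mt2* (3.05 ± 0.42, SE, log2; limma adjusted p = 0.0135) and *Mt1* (2.44 ± 0.34, limma adjusted p = 0.0131), then *Fgl1* (1.52 ± 0.25, limma adjusted p = 0.0219) and *Itih3* (1.31 ± 0.14, limma adjusted p = 0.00801), an inter-alpha-trypsin inhibitor chain. In the fits without 1 liver, *Mt1* and *Mt2* were each called in 3 of 6 and *Fgl1* in 2. *Hpx*, which encodes the haem carrier hemopexin, fell by 0.91 ± 0.15 (limma adjusted p = 0.0212). Without replicate 2 of the livers labelled HuRHep-/-, 0 of the list were called, and *Itih3* was called in 5 of the 6 fits without 1 liver.

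In HFCF, 1 of these 20 genes was higher and 1 lower, where 3.66% of all genes were called. The estimate was above 0 for 18 of the 20, and 6 had an unadjusted p under 0.05, where 29.5% of all genes had. *Itih3* was higher by 0.85 ± 0.14 (limma adjusted p = 0.0247) and *Hpx* was lower by 1.61 ± 0.10 (limma adjusted p = 0.00226). *Hpx* was called in 6 of the 6 fits without 1 liver, and *Itih3* in 2. The most abundant gene of the list was *C3*, at 2228 to 5582 CPM. Of 8 negative acute-phase genes, which hepatocytes make less of in the response, 0 were called by limma under either diet, and at an unadjusted p under 0.05 there were 1 in chow and 3 in HFCF. Their median was -0.20 in chow and -0.07 in HFCF, and 1 was lower in chow at a limma adjusted p of at most 0.05. *Alb*, the most abundant, was at 40686 to 79581 CPM.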

How the data were processed

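RNA-seq was measured in 12 mouse livers, 3 in each of 4 groups given by the labels. Reads had been aligned by the authors to GRCm38.p6 with CLC Genomics Workbench. They deposited raw read counts, 1 per gene and library, in a chow table of 20775 genes and an HFCF table of 22709. The counts are whole numbers written as text with digit separators, a form for which no count model was used. Instead, limma 3.58.1 (R 4.3.3) with a variance trend was used on log2 CPM, with a pseudocount of 0.5 and TMM factors (trims of 0.3 and 0.05) computed here.

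To enter a fit, a gene needed 15 counts in all and, in 3 or more libraries, what amounts to 10 counts at the median depth. Genotype was fitted within a diet, and diet and genotype by diet over all 12 libraries. P-values were adjusted by Benjamini-Hochberg over all genes tested. The call rule was a fold of at least 1.5, 10 counts over each group and an adjusted p no higher than 0.05. The study gives 3 mice per chow group, but for HFCF the labels only number the replicates, so p-values there measure the spread between these samples, which may be technical. At 30071731 to 35949203 counts per library, intervals from the fits cover counting error and whatever else differs between these libraries.

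The 10 genes and all gene lists were chosen with earlier results of these data known. Named besides them were *Elavl1*, called genes of the signalling list (at most 8 a comparison) and 6 fixed regulators, called genes with the largest change in the other lists (at most 4), the most abundant and up to 3 called genes of each marker list, and the 8 genes most like the mean of 5 inducible genes.

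Alternatives were other scaling factors, filters and pseudocounts, voom weights, a replicate block, a fit on 12 libraries, summed counts of similar genes and leaving out each library. The counts per list without 1 library and the *Saa1* to *Saa2* ratio were added after seeing the data. Simulated counts with known changes were used to test the fits. Promoters came from RefSeq tables on GRCm38.p6, transcripts and positions from GENCODE on GRCm38. Summaries were made in Python 3.11.15.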

Additional observations from a re-analysis of the deposited data

How the results depend on the processing

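Counts of called genes over all genes (302 and 523 between genotypes in chow and HFCF, 1368 and 2772 between diets in livers labelled WT and HuRHep-/-, and 0 for genotype by diet) stayed within 1.5 times under other scaling factors, filters, pseudocounts, voom weights, the replicate block and the fit on 12 libraries. Leaving out 1 library moved them, to between 8 and 320 for genotype in chow, 28 and 848 in HFCF, 850 and 1786 for diet in livers labelled WT, 2153 and 2862 in those labelled HuRHep-/-, and 0 and 34 for genotype by diet. The lowest in chow was without HuRHep-/- replicate 2, the highest in HFCF without WT replicate 3, which also gave the 34. Shifts of over 1.5 times were also found in chow without WT replicate 1 (110) or 3 (79) or HuRHep-/- replicate 1 (95), in HFCF without WT replicate 1 (39) or HuRHep-/- replicate 1 (28), 2 (32) or 3 (97), and for diet in livers labelled WT without chow replicate 1 (850) or HFCF replicate 3 (873). Fewer samples entered each of these fits, and the cause was not tested further.

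The same replicate numbers do not pair the livers. The correlation of deviations between same-numbered livers ran from -0.136 to 0.190 and was over 0.1 for every number in no comparison, although in HFCF each liver correlated best with its own number (0.088, 0.190 and 0.086), a hint from the data and not the design. With the replicate block, the counts were 225, 764, 1362, 2750 and 0, and in HFCF *Saa1*, *Lcn2* and *Orm2* met the call rule, beside 5.34% of all genes.

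For single genes, 127 values gave 2214 values under alternatives. Of those without 1 library, 1109 kept their direction and call, 115 lost the call, 15 gained it and 21 reversed. Under other settings it was 910, 26, 12 and 6. Without 1 library, the ranges that crossed 0 were, in chow, *Orm3* (-0.44 to 0.085), *Saa4* (-0.069 to 0.080), *Cebpd* (-0.29 to 0.26) and *Nfkbiz* (-0.073 to 0.33), and in HFCF, *Saa3* (-0.15 to 0.27), *Orm3* (-0.60 to 0.24) and *Cebpd* (-0.54 to 0.23). For diet they were *Saa4* in livers labelled WT (-0.28 to 0.18) and *Saa2* (-1.69 to 0.16) and *Orm2* (-0.22 to 1.11) in those labelled HuRHep-/-, and for genotype by diet *Orm3* (-0.38 to 0.45). With *Orm1*, *Orm2* and *Orm3* summed, the sum differed by 0.37 between genotypes in chow and 0.11 in HFCF, opposite to *Orm3*, and by -0.31 and -0.55 between diets in livers labelled WT and HuRHep-/-, opposite to *Orm2* and *Orm3*.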

Other observations

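Between diets, called genes of the acute-phase lists outside the 10 were lower in HFCF, with 1 exception. In the livers labelled WT, 0 of 20 other positive acute-phase genes were higher and 6 lower in HFCF than in chow, where 9.41% of all genes were called, among them the fibrinogen chains *Fgb* (-0.86 ± 0.18, SE, log2; limma adjusted p = 0.00590), *Fga* (-0.77 ± 0.18, 0.0112) and *Fgg* (-0.75 ± 0.17, 0.00870), and *Lbp* (-0.63 ± 0.20, 0.0353). In the livers labelled HuRHep-/- 1 was higher, *Cd14* (1.74 ± 0.31, 0.00177), and 10 were lower, where 19.1% of all genes were called, led by *Fgl1* (-1.41 ± 0.26, 0.00189), *Itih3* (-1.05 ± 0.15, 0.000596) and *Fga* (-0.93 ± 0.18, 0.00262). Of the negative acute-phase genes, *Ahsg* (-0.78 ± 0.16, 0.00606) and *Fetub* (-0.74 ± 0.10, 0.000964) fell in the livers labelled WT, and *Fetub* (-0.78 ± 0.10, 0.000369) in those labelled HuRHep-/-. In the 6 fits that each left out 1 liver of the groups compared, *Lbp* was called in 2 and the other genes named here in 6. Hepatocyte markers fell beside them, among them *Cyp3a11* (-1.18 ± 0.28, 0.0112), *Ass1* (-0.92 ± 0.21, 0.00979) and *Cps1* (-0.82 ± 0.17, 0.00606) in the livers labelled WT, and *Cyp3a11* (-1.23 ± 0.28, 0.00538), *Cps1* (-0.79 ± 0.17, 0.00435) and *Cyp2e1* (-0.60 ± 0.16, 0.0126) in those labelled HuRHep-/-. *Cyp2e1* was called in 3 of the 6 fits and the other hepatocyte values in 6, and their part in the acute-phase values was not tested. Diet and count table cannot be told apart here either.

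Of 38 signalling genes, 3 were higher and 1 lower between diets in the livers labelled WT, beside the same 9.41% of all genes, namely the NF-kB subunits *Relb* (0.95 ± 0.29, SE, log2; limma adjusted p = 0.0347) and *Nfkb2* (0.66 ± 0.14, 0.00694), *Tnfaip3* (0.79 ± 0.23, 0.0296) and the receptor subunit *Lifr* (-1.09 ± 0.29, 0.0187). In the livers labelled HuRHep-/- 8 were higher and 4 lower, beside 19.1% of all genes, led by *Il1b* (1.89 ± 0.35, 0.00211), *Relb* (1.61 ± 0.29, 0.00179), *Clcf1* (1.56 ± 0.41, 0.0121), *Osmr* (1.56 ± 0.20, 0.000348) and *Nfkb2* (1.25 ± 0.14, 0.000187), with *Lifr* at -1.85 ± 0.29 (0.000796). For each comparison, 6 fits left out 1 liver of the groups compared. In the livers labelled WT, *Relb* and *Tnfaip3* were called in 2 of these, *Lifr* in 3 and *Nfkb2* in 4. The 6 genes named for the livers labelled HuRHep-/- were called in 6 there. Kupffer cell marker sums were also higher in HFCF, and their part in these values was not tested.

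Genes whose proteins bind the 10 proteins or take them up were counted as well. Between genotypes, 0 of 9 were higher and 1 lower in chow, *Cd36* (-0.97 ± 0.18, SE, log2; limma adjusted p = 0.0305), where 2.23% of all genes were called, and 1 of 10 was higher and 0 lower in HFCF, *Tlr2* (0.75 ± 0.18, 0.0498), where 3.66% were. Both were called in 1 of the 6 fits without 1 liver. Between diets, *Cd36*, a scavenger receptor, was higher by 1.96 ± 0.25 (0.000651) in the livers labelled WT and by 2.81 ± 0.25 (6.55e-05) in those labelled HuRHep-/-. *Tlr2* was higher by 0.71 ± 0.21 (0.0298) and 1.63 ± 0.21 (0.000345), called in 3 and 6 of the 6 fits without 1 liver of the groups compared. *Cd163*, the macrophage receptor for haptoglobin bound to haemoglobin, was at -1.37 ± 0.27 (0.00249) in the livers labelled HuRHep-/-. The most abundant gene of the list was *Scarb1*, at 118 to 210 CPM.

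Among markers of other cells and tissues, *Cidec*, a lipid droplet gene, was higher in HFCF by 4.46 ± 0.50 (SE, log2; limma adjusted p = 0.000294) in the livers labelled WT and by 5.34 ± 0.50 (7.24e-05) in those labelled HuRHep-/-, and *Fabp2* by 1.77 ± 0.13 (4.11e-05) and 1.87 ± 0.13 (2.78e-05). Of 3 adipocyte markers tested, 2 estimates were above 0 and 1 below in both, the last at a limma adjusted p of at most 0.05. Of 3 pancreas and gut markers tested, 1 was above 0 and 2 below in the livers labelled WT. In those labelled HuRHep-/- 2 were above and 1 below, *Cela2a*, which was called lower, and in 4 of the 6 fits without 1 liver. Of 9 lymphocyte markers, 4 were called higher and 0 lower between diets in the livers labelled HuRHep-/-, beside 19.1% of all genes, with 7 estimates above 0 and 2 below. The T cell marker *Cd8a* was higher by 1.87 ± 0.44 (0.00665) in the HFCF livers labelled HuRHep-/-, with *Nkg7* at 1.47 ± 0.37 (0.00908) and *Cd3e* at 1.46 ± 0.32 (0.00496), while *Cd4*, the most abundant, was at -0.29 ± 0.46 (0.639). Of the 9, 0 were called by limma in the livers labelled WT, and 2 had an unadjusted p under 0.05. The difference between these diet effects, genotype by diet, was called by limma for 0 of 9, and 3 had an unadjusted p under 0.05, where 14.3% of all genes had. *Csf3r* was the one neutrophil marker called, at 1.06 ± 0.28 (0.0112) in the livers labelled HuRHep-/-.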
